A study of Mus musculus with 6 samples.

Results

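The regions described here are stretches of open chromatin that had a peak in all 6 ATAC-seq libraries of the study and ranked higher in every library of doxorubicin-treated mice than in every library of control mice. Peaks of the 6 libraries on chromosomes 1 to 19 and X that overlapped were merged into 113022 regions, and 55226 of these (48.9%) held a peak in each library and are called shared. In each library the shared regions were ordered by their highest fold enrichment and given a percentile rank, from 0 for the weakest to 100 for the strongest. A shared region is called a member where the lowest of its DOX ranks lay above the highest of its PBS ranks and the mean DOX rank exceeded the mean PBS rank by at least 5 points. The members number 3442, which is 6.23% of the shared regions. The same rule with the groups exchanged found 3284 regions (5.95%), called lower regions below. The members were chosen by these fold enrichment ranks in all 6 libraries, so their differences between DOX and PBS are given as a description and without a test. With no least difference, the ranks of the groups did not overlap in 5081 shared regions with DOX above (9.2%) and in 5139 with PBS above (9.31%).

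In ATAC-seq the transposase Tn5 cuts and tags DNA that is not wrapped in nucleosomes, and a peak marks a place where many such cuts pile up. Promoters of active genes are open in most cell types, whereas the regions between and inside genes include enhancers, whose opening differs more between cell types and states. Stromal cells of the leptin receptor lineage surround the sinusoids of the bone marrow, supply Cxcl12 and stem cell factor to blood stem cells, and can give rise to bone and fat cells. Doxorubicin is an anthracycline that poisons topoisomerase II, breaks DNA and evicts histones.

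The mice were Lepr-Cre;LSL-tdTomato+/-, in which Cre made in cells that express the leptin receptor, or once did, switches on the red tdTomato protein for good. The DOX group consisted of female mice that received 4 intravenous injections of 5 mg/kg doxorubicin, given 1 week apart from an age of 8 to 10 weeks, and the PBS group of female mice of the same genotype and age that were injected with phosphate-buffered saline on the same schedule. Marrow was taken 8 weeks after treatment, tdTomato+ cells were sorted as mesenchymal stem and progenitor cells (MSPCs), and 3 libraries were made per group. The sources used here do not say whether a library came from 1 mouse or from a pool, so the spread is that between libraries.

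Of 8 genes that define these stromal cells, 7 (Lepr, Cxcl12, Kitl, Pdgfra, Pdgfrb, Ebf3 and Foxc1) were open at a gene end in each of the libraries, and Prrx1 was in each except PBS replicate 3. Depth differed between the groups. The mean number of fragments per position was 1.67 to 2.22 in DOX libraries and 0.558 to 1.27 in PBS libraries, with PBS replicate 3 far below the other libraries. Treatment and depth cannot be told apart in this design, and results that rest on PBS replicate 3 are given with and without it. In bulk samples, a change in the share of cells in which a region is open and a change within each cell also cannot be told apart.

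The strands, coordinates and sequences of promoters below come from the RefSeq table of build GRCm38.p6, in which a promoter runs from 250 bases before a gene's start to 50 bases after it. These 5 are shown because they are the promoters that held the summit of a member and had the largest rank differences. They are printed 5′ to 3′ on the strand of the gene. Capitals mark matches, on either strand, to one of 8 short motifs: AP-1 (TGANTCA), GC box (GGGCGG), NF-Y (CCAAT), E-box (CACGTG), cAMP response element (TGACG), RUNX (TGTGGT), ETS (TTCCGG) and TEAD (CATTCC).
8430426J06Rik: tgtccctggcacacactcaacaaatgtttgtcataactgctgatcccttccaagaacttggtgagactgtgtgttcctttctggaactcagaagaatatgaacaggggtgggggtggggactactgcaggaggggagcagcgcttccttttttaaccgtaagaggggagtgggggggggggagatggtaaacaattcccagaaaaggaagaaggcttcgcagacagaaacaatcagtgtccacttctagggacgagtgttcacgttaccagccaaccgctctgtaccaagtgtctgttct
Gm34802: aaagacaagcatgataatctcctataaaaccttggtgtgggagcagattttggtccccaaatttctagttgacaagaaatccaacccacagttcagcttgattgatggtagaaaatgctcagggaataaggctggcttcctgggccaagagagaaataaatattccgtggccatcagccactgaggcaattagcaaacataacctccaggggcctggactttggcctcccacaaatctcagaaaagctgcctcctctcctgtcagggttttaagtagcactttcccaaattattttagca
Gm34148: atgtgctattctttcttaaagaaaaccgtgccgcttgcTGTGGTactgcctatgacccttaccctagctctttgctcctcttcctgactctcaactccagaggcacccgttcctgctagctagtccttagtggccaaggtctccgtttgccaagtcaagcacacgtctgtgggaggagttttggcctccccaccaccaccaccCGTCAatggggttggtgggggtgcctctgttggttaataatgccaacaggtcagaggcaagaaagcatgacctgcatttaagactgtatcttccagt
Plin4: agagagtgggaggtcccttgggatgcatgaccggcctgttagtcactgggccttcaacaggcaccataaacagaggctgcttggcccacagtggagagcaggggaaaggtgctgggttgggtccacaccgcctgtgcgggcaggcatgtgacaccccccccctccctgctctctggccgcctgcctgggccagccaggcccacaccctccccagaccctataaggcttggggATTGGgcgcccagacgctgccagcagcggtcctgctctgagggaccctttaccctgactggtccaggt
Pdlim3: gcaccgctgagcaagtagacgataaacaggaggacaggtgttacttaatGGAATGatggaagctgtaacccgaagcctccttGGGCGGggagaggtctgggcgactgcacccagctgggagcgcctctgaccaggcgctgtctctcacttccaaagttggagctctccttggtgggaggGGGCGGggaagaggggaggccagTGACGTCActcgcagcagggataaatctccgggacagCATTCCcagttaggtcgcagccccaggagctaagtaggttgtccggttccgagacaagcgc

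The promoter of 8430426J06Rik (chr15:81247922-81248221, minus strand) and that of Gm34802 (chr4:57160413-57160712, plus strand) held none of the 8 motifs. Their GC contents were 50.7% and 44.7%, with 6 and 1 CpG dinucleotides. That of Gm34148 (chr6:127448261-127448560, minus strand) held a RUNX match at base 39 and a cAMP response element match at base 204, counted from 1 at the first base printed. The promoter of Plin4 (chr17:56109733-56110032, minus strand), the gene of a protein that coats lipid droplets, held an NF-Y match at base 233. The promoter of Pdlim3 (chr8:45885237-45885536, plus strand), the gene of a PDZ and LIM domain protein bound to alpha-actinin, held TEAD matches at bases 50 and 240, GC boxes at bases 83 and 180, and overlapping cAMP response element matches on both strands at bases 203 and 206. A match is a run of letters and says nothing about whether a factor is bound.

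The region over the Plin4 promoter (chr17:56109634-56110212) ranked 55.3, 51.2 and 54.4 in the DOX libraries, against 34.3, 31.8 and 27.0 in the PBS libraries. The groups were 17 points apart at their nearest values. Its pileup at the summit, the number of overlapping fragments there, was 84, 80 and 118 in DOX and 37, 32 and 13 in PBS. This pileup divided by the median pileup of the shared regions of the library is called the level below. The geometric mean of the level in DOX was 1.74 times that in PBS, and later ratios of levels are also of geometric means. The region over the Pdlim3 promoter (chr8:45885157-45885609) ranked 30.9, 37.7 and 34.1 in DOX and 20.8, 8.43 and 7.08 in PBS. Its level was 1.7 times as high in DOX, and its PBS values were more scattered than its DOX values.

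Members were middling regions in both groups. Their median rank was 46.5, 46.4 and 47.1 in DOX replicates 1 to 3, against 35.4, 34.5 and 30.5 in PBS replicates 1 to 3. A typical member thus stood just under the median of all shared regions in DOX and clearly under it in PBS. The rank difference of the members had a median of 10.4 points, quartiles of 7.55 and 14.3 and a maximum of 34.4. It was at least 10 points in 1841 members, at least 20 in 240 and at least 30 in 6. On the scale of levels, the ratio of DOX to PBS had a median of 1.32 and quartiles of 1.24 and 1.45, whereas over all shared regions the median ratio was 0.963. The ratio reached 1.5 in 632 members and 2.0 in 26, so most members differed by less than that.

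**Figure D1:**
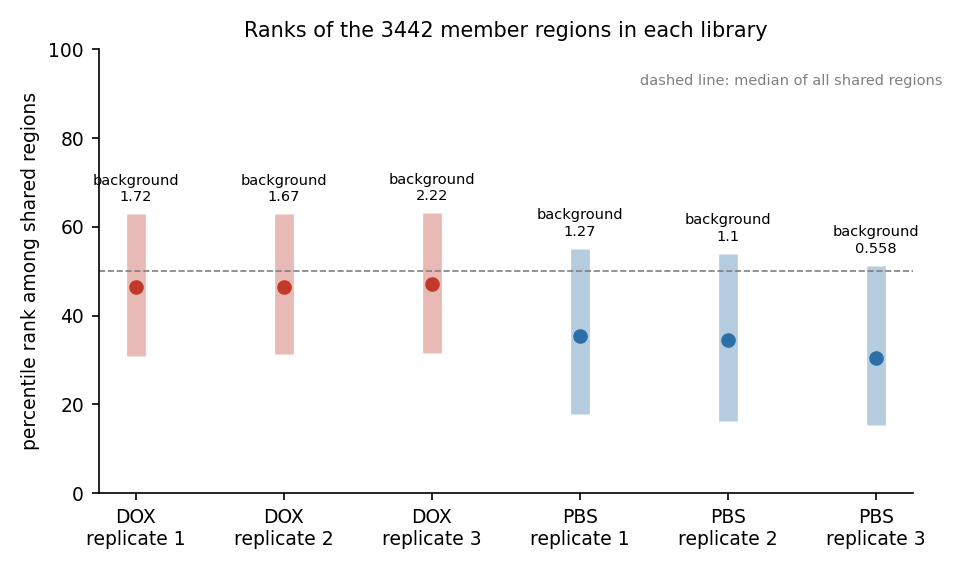
Percentile ranks of the 3442 members in each library. Points are medians, bars span the quartiles, the dashed line is the median of all shared regions and the numbers above the bars are the mean fragments per position of the library; the DOX medians are 46.4 to 47.1 and the PBS medians 30.5 to 35.4, with the lowest in the shallowest library.

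The distance between the lowest DOX rank and the highest PBS rank of a member was small, with a median of 2.9 points. DOX replicate 3, the deepest library, was the highest of the DOX libraries in 1365 members (39.7%), DOX replicate 2 in 1051 and DOX replicate 1 in 1026. PBS replicate 3, the shallowest, was the lowest of the PBS libraries in 1652 members (48.0%), PBS replicate 2 in 965 and PBS replicate 1 in 825. Among members, the deepest DOX library was thus most often the highest of its group, and the shallowest PBS library most often the lowest. DOX replicate 3 was the lowest of its group in 31.0% of members and PBS replicate 3 the highest in 23.9%. The same counts were not made over all shared regions. The part of depth in the differences was not tested. The largest group of regions with the same fold enrichment took up 0.789 to 1.18 points in DOX libraries, against 1.58, 1.74 and 4.29 points in PBS replicates 1 to 3, so that ties were coarsest in PBS replicate 3. The median width of the authors' peaks in the members was 539, 555 and 587 bp in DOX and 426, 468 and 293 bp in PBS, and for all shared regions it was 569, 585 and 612 bp in DOX and 490, 533 and 359 bp in PBS.

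Counting intervals overlapped between the groups in nearly every member. A 95% exact Poisson interval was set around each pileup and divided by the median of the library. The intervals of all DOX libraries lay above those of all PBS libraries in 1 member, or 0.00181% of the shared regions, and the reverse held in 5 shared regions (0.00905%). The single member lies inside Ptk2b (chr14:66241366-66242107), the gene of the focal adhesion family kinase Pyk2. It ranked 68.2, 70.7 and 66.0 in DOX and 50.5, 50.6 and 33.7 in PBS, with pileups of 127, 150 and 171 in DOX and 55, 51 and 15 in PBS. Its level was 2.00 times as high in DOX, and its rank difference was 23.4 points with PBS replicate 3 and 17.8 without it. These intervals cover counting error only.

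The ordering was also read in libraries whose ranks had no part in choosing the regions, although a peak in every library was still required. For each of the 9 pairs of 1 DOX and 1 PBS library, the rule was applied to the remaining 4 libraries, and the left-out libraries were then compared. The 6208 to 7677 regions chosen in this way ranked higher in the left-out DOX library than in the left-out PBS library in 58.4% to 71.5% of cases, with a median over pairs of 65.4%. Over all shared regions the share was 49.1% to 50.4%, and over regions chosen in the opposite direction it was 31.6% to 43.0%. The ordering thus carried over to the left-out libraries more often than not, and was lost in a good share of the regions. In every pair the left-out DOX library was also deeper than the left-out PBS library. Treatment and depth therefore cannot be told apart in these pairs either. The median difference in the left-out pair was 1.79 to 4.58 points, well under the median of 10.4 of the members. The 9 pairs reuse the same 6 libraries and are not independent of each other. With PBS replicate 3 as the left-out PBS library the shares were 63.4%, 67.0% and 67.1%. The lowest share came from DOX replicate 3 with PBS replicate 1, and the highest from DOX replicate 3 with PBS replicate 2.

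Among the 15 largest differences, 3 lay at or inside genes of secreted signals or a receptor of one, and 1 inside a gene of the fibroblast growth factor family. A region 70 bp from an end of Cxcl5, a chemokine that draws neutrophils (chr5:90758964-90759666), ranked 47.1, 39.1 and 44.6 in DOX libraries, against 5.20, 31.8 and 1.24 in PBS libraries. The DOX values lay close together, whereas PBS replicate 2 stood well above the other PBS libraries. The difference was 30.9 points, or 25.1 without PBS replicate 3. Inside Wnt7b, a Wnt ligand that promotes bone formation, a region (chr15:85560867-85561436) ranked 44.1, 41.7 and 42.9 in DOX and 17.9, 11.4 and 7.08 in PBS. These DOX values, within 2.36 points of each other, were the tightest of the 15 largest differences, and the mean difference was 30.8 points. Inside Il1r1, the receptor of interleukin-1, a region (chr1:40253000-40253578) ranked 37.7, 18.9 and 35.2 in DOX and 1.48, 0.182 and 3.59 in PBS. It was among the weakest shared regions in every PBS library, and its level ratio of 2.72 was the highest of all members. Fgf13, a member of the fibroblast growth factor family that acts inside cells, held a region (chrX:59220707-59221171) that ranked 51.8, 39.8 and 50.6 in DOX and 31.9, 16.2 and 7.08 in PBS.

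Others of the 15 lay near or inside Sptbn1, Palld and Sun2. A region 24582 bp from Sptbn1, a beta-spectrin of the membrane skeleton (chr11:30292715-30293182), ranked 58.0, 51.7 and 51.0 in DOX and 42.6, 9.88 and 11.2 in PBS. PBS replicate 1 came within 8.42 points of the lowest DOX value. Inside Palld, which bundles actin filaments, a region (chr8:61747030-61747427) ranked 39.3, 33.9 and 39.0 in DOX and 13.3, 9.88 and 1.24 in PBS. Inside Sun2, part of the bridge between nuclear lamina and cytoskeleton, a region (chr15:79731550-79732020) ranked 48.2, 49.4 and 60.0 in DOX and 23.7, 27.5 and 19.5 in PBS. The groups were 20.5 points apart at their nearest values in Palld and 20.7 points in Sun2. All of these are ranks within a library, so that a difference says that a region moved relative to the other shared regions.

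The 2 largest differences of all lay inside genes of membrane proteins. In Grin2b, a subunit of the NMDA glutamate receptor, a region (chr6:135816868-135817360) ranked 49.3, 33.9 and 58.9 in DOX and 6.42, 21.2 and 11.2 in PBS, a difference of 34.4 points. Its pileup was 71, 51 and 135 in DOX and 17, 25 and 9 in PBS. The DOX ranks spanned 25.1 points, a wider spread than in the other regions described so far. In Susd4, a membrane protein with sushi domains, a region (chr1:182815028-182815550) ranked 49.8, 54.5 and 60.4 in DOX and 20.8, 22.9 and 19.5 in PBS. The PBS libraries lay within 3.34 points of each other here, and the gap of 27.0 points between the groups was the widest of any member. A region inside Ddah1 (chr3:145827631-145828102), whose product breaks down an inhibitor of nitric oxide synthase, had a difference of 29.9 points. A region on chromosome 14 with no protein-coding gene within 100 kb (chr14:14583948-14584764) had PBS replicate 3 as its highest PBS library, as had the Il1r1 region. It ranked 42.2, 54.9 and 43.8 in DOX and 11.9, 4.40 and 36.5 in PBS, and its difference grew to 38.8 points from 29.3 when PBS replicate 3 was left out. Without that library the differences of the 15 regions were 23.4 to 38.8 points.

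**Figure D2:**
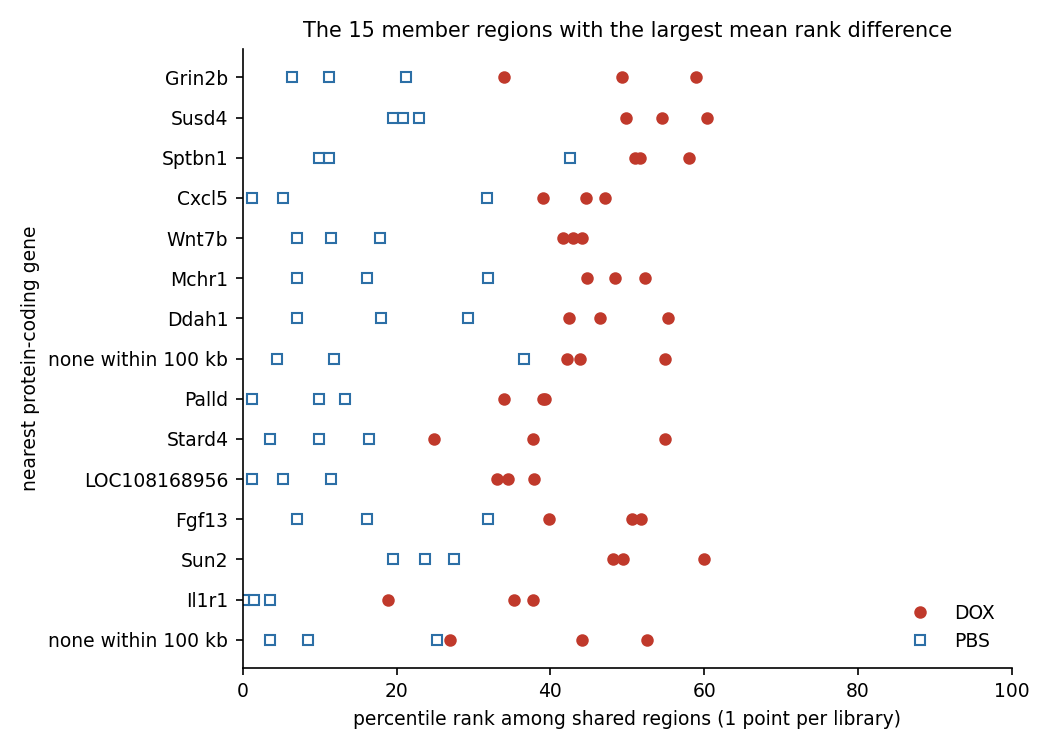
Percentile ranks of the 15 members with the largest mean rank difference, labelled by the nearest protein-coding gene; each point is 1 library, filled circles for DOX and open squares for PBS. In each row all 3 DOX points lie to the right of all 3 PBS points, as the rule requires, while the spread within groups in DOX ranges from 2.36 points for Wnt7b to 30.1 points for Stard4.

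At the other end of the range, the members just inside the threshold were near Ly86 and at ends of Spag4 and Cpxm1, with differences of 5.00, 5.00 and 5.01 points. The regions just outside it, near Klhl13, Ltb4r2 and Serp2, had differences of 4.99, 5.00 and 5.00 points, the last pair under the bound before rounding. The strongest member lay inside Plekha2 (chr8:25098010-25099005), the gene of a lipid-binding adaptor protein. It ranked 94.6, 94.1 and 95.8 in DOX and 88.2, 86.5 and 89.6 in PBS, so that strong regions could differ by only a few points. The widest member, of 9248 bp, lay inside Sbno2 (chr10:80056375-80065622), and a member of 4699 bp lay 1883 bp from Kitl, which encodes stem cell factor (chr10:100098517-100103215). The Kitl region ranked 32.7, 31.3 and 44.6 in DOX and 5.20, 24.5 and 11.2 in PBS. As a rule members were not wide. Their median width was 664 bp, against 697 bp for all shared regions and 537 bp for lower regions.

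Members were at the ends of genes in a smaller share than the other shared regions. A region was placed at a gene end where its summit lay at most 1 kb from the start or the end of the span of a protein-coding gene, since the gene table gives no direction of transcription. This held for 391 of 3442 members (11.4%, 95% exact binomial interval 10.3% to 12.5%), against 21.8% of shared regions that were not members (21.4% to 22.1%). The intervals treat regions as independent, which neighbours are not. Members lay inside genes in 49.6% of cases, against 41.7% of the other shared regions, and outside genes in 39.0%, against 36.5%. Lower regions were at gene ends even less often, in 8.13%, and more often outside genes, in 48.0%. A low share at gene ends was therefore shared by regions that moved in either direction. It also depended on the least difference required: among regions whose groups did not overlap, with no least difference, 20.5% were at gene ends, close to the 21.1% of all shared regions.

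Both the share of members and the share at gene ends varied with the strength of a region. The shared regions were divided into 5 equal parts by their mean rank over all 6 libraries. From the weakest part to the strongest, 6.14%, 9.21%, 8.59%, 6.17% and 1.05% of regions were members. The strongest part held few of them. The share of members at gene ends in these parts was 8.26%, 8.55%, 11.8%, 16.1% and 22.4%, and that of the other regions was 6.98%, 7.57%, 10.3%, 23.2% and 58.1%. In the 3 weaker parts members were at gene ends slightly more often than the others, and in the 2 stronger parts they were there less often. The low share over all members thus came with their scarcity among the strongest regions and with the difference within the 2 stronger parts. With parts by mean PBS rank, 9.65%, 8.36%, 7.6%, 4.97% and 0.589% of regions were members, from weakest to strongest. With parts by mean DOX rank the shares were 3.3%, 8.38%, 10.2%, 7.47% and 1.81%. The part richest in members thus depended on the ranks used, while the strongest part held the smallest share each time. By chromosome, the share of shared regions that were members ran from 4.92% on chromosome 11 to 7.4% on chromosome 12.

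**Figure D3:**
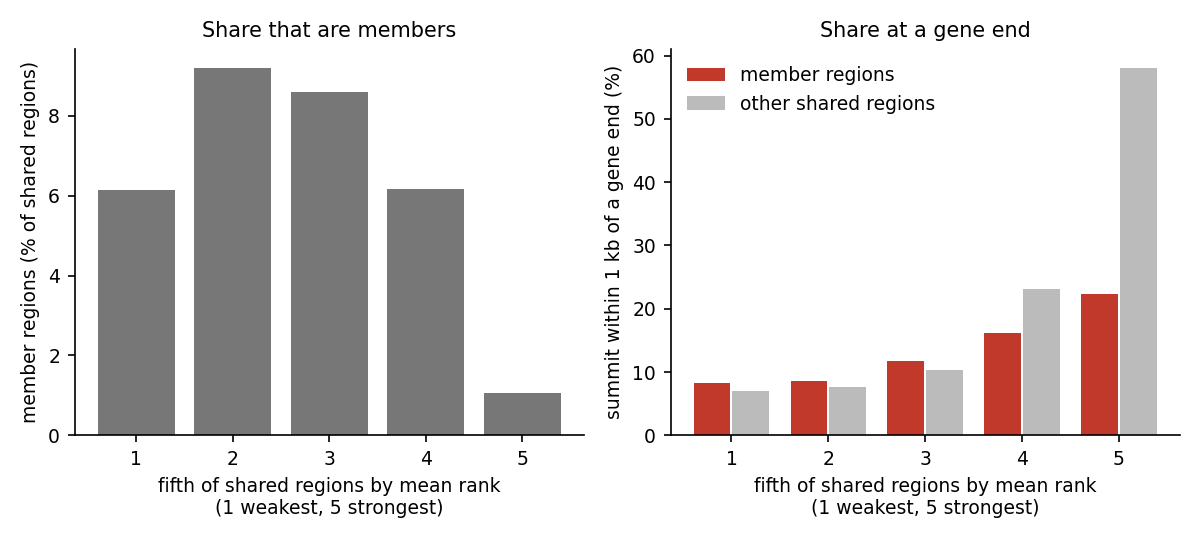
Shared regions in 5 equal parts by mean rank over all 6 libraries. The left panel gives the share of regions that are members (%), which is highest in the second part (9.21%) and lowest in the strongest (1.05%). The right panel gives the share with a summit within 1 kb of a gene end (%) for members and for other shared regions, which part ways in the strongest part (22.4% of members and 58.1% of others).

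Members, like lower regions, tended to lie beside regions of their own kind. The nearest shared region of a member was itself a member in 386 cases (11.2%), whereas the nearest shared region of any shared region was a member in 6.65%. The nearest shared region of a lower region was a lower region in 10.1%, against 5.86% over all shared regions, and a member in 4.14%. The nearest neighbour of a member had a rank difference above 0 in 60.6% of cases, against 50.0% over all shared regions. Neighbouring regions share their DNA context and libraries, and no test of the difference was made. When regions were chosen without PBS replicate 3 among the same 55226 shared regions, the nearest neighbour was chosen too in 14.1% of cases. Over all shared regions it was chosen in 9.32%. Most members nevertheless stood alone: with members joined where they were at most 50 kb apart, 2017 of the 3442 had no other within reach, and 16 clusters of 5 or more held 106 members. A cluster runs from its first member to its last, and only the shared regions within that span are counted. Its ends are thus members by construction, which raises the share of members in every cluster below.

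The cluster with the most members lay outside genes between Mrps6, a mitochondrial ribosomal protein, and Kcne2, a potassium channel subunit (chr16:92158064-92273176). Of its 22 shared regions 13 were members (59.1%), none was a lower region and all 22 had a difference above 0, with a median of 7.91 points. Without PBS replicate 3, 20 of the 22 had a difference above 0 and 10 were chosen. The members were spread over 115 kb and included weak as well as strong regions. One of the weaker, chr16:92249708-92250413, ranked 27.0, 25.0 and 25.6 in DOX and 6.42, 11.4 and 11.2 in PBS. A strong one near the far side, chr16:92269526-92270421, ranked 83.5, 84.1 and 82.9 in DOX and 77.9, 75 and 70 in PBS. Both had narrow ranges within the DOX group. The largest difference in the cluster, 24.8 points, belonged to chr16:92172982-92173602, which ranked 47.1, 48.4 and 27.6 in DOX and 23.7, 18 and 7.08 in PBS. Between these members lay regions with hardly any difference, such as chr16:92215672-92216641, which ranked 90.7, 89.5 and 89.5 in DOX and 88.2, 88.4 and 92.1 in PBS. The cluster was picked as the largest after its values were seen.

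**Figure D4:**
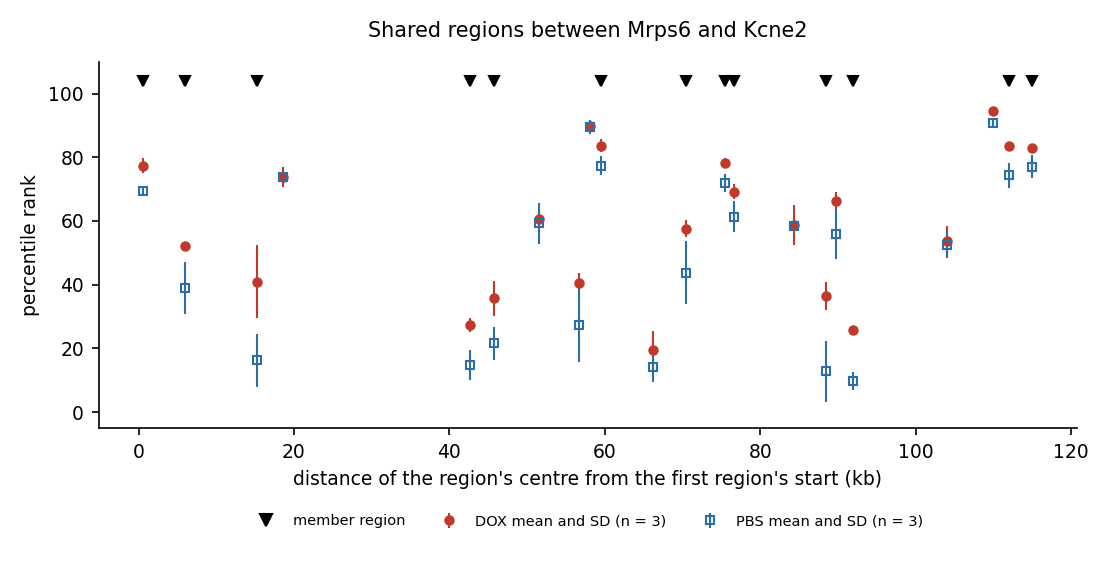
The 22 shared regions between Mrps6 and Kcne2, by the distance of their centres from the start of the first (kb) and their percentile rank. Filled circles are DOX means and open squares PBS means, both with the SD of 3 libraries, and triangles mark the 13 members; DOX means lie above PBS means in all 22 regions, by 0.16 to 24.8 points.

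The other clusters lay at genes of varied kinds. A cluster at Spsb1 and H6pd (chr4:149900700-150049321) held 10 members among 27 shared regions, of which 18 had a difference above 0. H6pd makes NADPH inside the endoplasmic reticulum. The cluster at Mta3 and Haao (chr17:83802916-83955371) held 9 members among 25. At Myh9, the heavy chain of non-muscle myosin, and Txn2 (chr15:77794371-77905870) 7 of 22 were members, and 18 of 22 had a difference above 0. The Plin4 promoter shown above belonged to a cluster with Plin5 and Sema6b (chr17:56108436-56140477), in which 5 of 7 regions were members and all 7 had a difference above 0, with and without PBS replicate 3. Near Irs2, an adaptor of the insulin receptor (chr8:10857142-10935773), 5 of 11 were members. At Synpo2, which binds actin and alpha-actinin (chr3:123107313-123124418), all 4 shared regions between the first and the last member were members, with a median difference of 14.9 points. In a set this small the count says little beyond the values themselves.

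A member was assigned by position to the protein-coding gene nearest to its summit within 100 kb, which need not be the gene that it serves. The 3442 members fell to 2217 genes, of which 1650 had 1 member and 79 had 4 or more, and 332 members had no gene in reach. Kcne2 led with 9 members among 20 shared regions, all 20 with a difference above 0. Tmcc3, a membrane protein of the endoplasmic reticulum, had 7 among 27, of which 19 had a difference above 0. Tns3, the focal adhesion protein tensin 3, had 7 among 51, a share closer to the 6.23% of all shared regions. Spsb1, Mrps6, Fndc3b and Arhgap26 had 6 members each, among 26, 10, 36 and 50 shared regions, and Lhfp had 5 among 23. The 7 members of Tmcc3 had differences of 6.08 to 19.1 points, and none of its 27 regions was a lower region.

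Across 25 gene lists, the share of assigned shared regions that were members ran from 0% to 14.3%, around the 6.23% of all shared regions. The list shares are descriptions without a test, and most of their 95% exact binomial intervals include the overall share. A list's regions are counted by the nearest gene, and genes with many regions weigh more. Some lists had a share above that of all shared regions in each of 15 other ways of choosing regions. These were the lists for Notch, for actin, adhesion and Hippo, for fat cells, for TGF-beta and BMP, and for erythroid and megakaryocytic cells. The lists for DNA damage response and for nuclear receptors and clock had such a share in none of the 15. All 15 ways used the same 6 libraries or some of them and the same contrast, so they are not separate checks. Ranking by −log10 q even orders the regions as fold enrichment does.

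**Figure D5:**
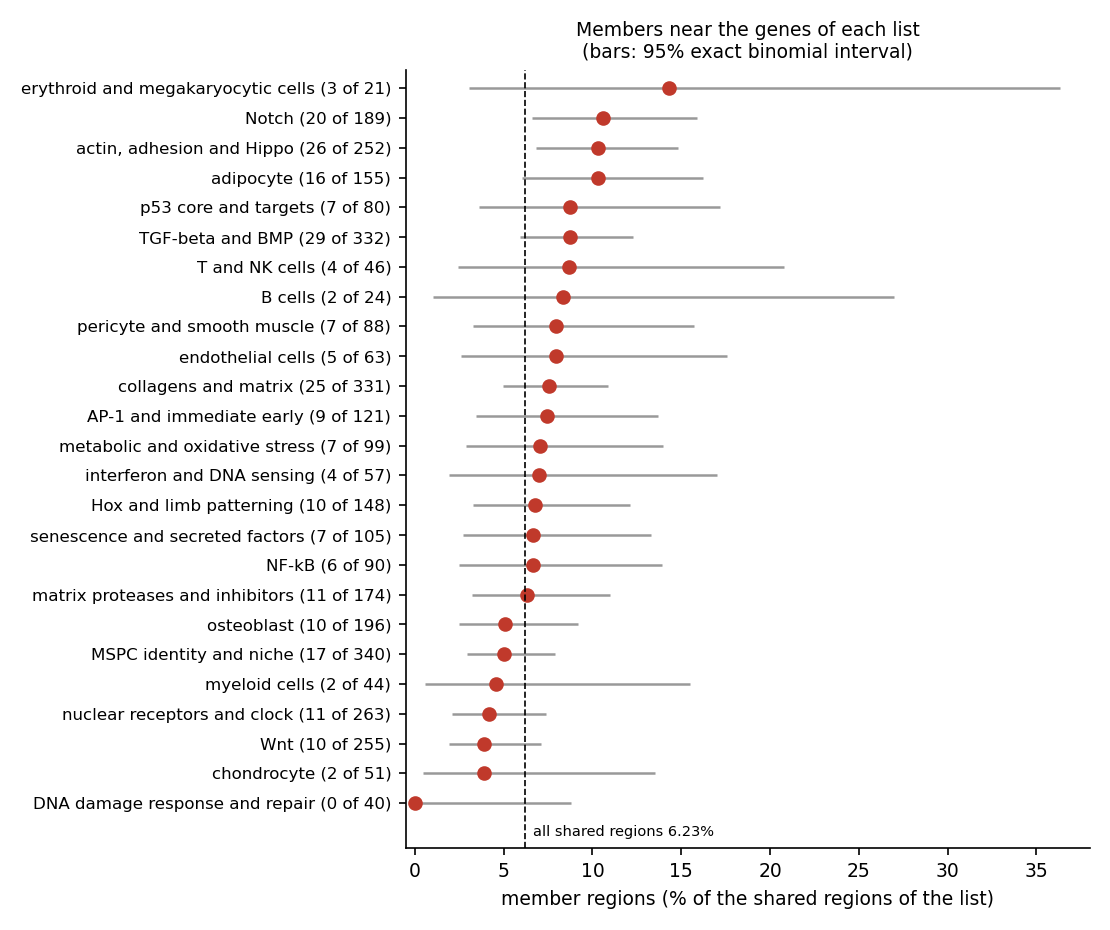
Share of the shared regions assigned to each gene list that were members (%), with 95% exact binomial intervals and the number of members of how many regions beside each name. The dashed line is the share of all shared regions, 6.23%; Notch, actin and adhesion, and adipocyte genes stand at 10.3% to 10.6%, and DNA damage response genes at 0%.

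Fat cell genes had 16 members among 155 shared regions (10.3%, interval 6.02% to 16.2%) and also 11 lower regions, and 92 of the 155 had a difference above 0. The median difference of the list was 1.12 points, against -0.06 points over all shared regions. The largest belonged to a region 1146 bp from Klf15, a transcription factor that promotes fat cell formation (chr6:90459621-90460130). It ranked 41.5, 42.3 and 44.2 in DOX and 7.70, 7.0 and 30.5 in PBS. Here PBS replicate 3 was the highest PBS library, and without it the difference was 35.3 points and not 27.6. A region 5300 bp from Fabp4, the fatty acid binding protein of fat cells (chr3:10213480-10214165), ranked 45.9, 38.4 and 55.0 in DOX and 37.6, 13.0 and 27.0 in PBS. The groups were only 0.785 points apart there. A region near Pparg, the master regulator of fat cell formation (chr6:115349403-115350262), ranked 23.9, 35.4 and 34.1 in DOX and 17.9, 8.43 and 19.5 in PBS. Near Cebpb, which acts before Pparg, the difference of 19.5 points was reduced to 10.4 without PBS replicate 3. For this and the later list shares without PBS replicate 3, regions were merged anew from the other libraries. Those with a peak in each of these libraries, 68448 in all, then took the place of the shared regions. So counted, 16.5% of the list's regions were chosen, against 9.15% of all.

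Notch genes had 20 members among 189 shared regions (10.6%, interval 6.58% to 15.9%), and 12 lower regions. The members came from receptors (Notch1, Notch2 and Notch3), from the coactivators Maml2 and Maml3, and from the target genes Hes1 and Heyl. Inside Maml3 a region (chr3:52015651-52015941) ranked 32.7, 32.2 and 20.4 in DOX and 6.42, 3.28 and 11.2 in PBS. A region 5793 bp from Hes1 (chr16:30059073-30059870) ranked 40.0, 51.2 and 48.9 in DOX and 33.1, 22.9 and 33.7 in PBS. Inside Notch1 a region (chr2:26493292-26493952) ranked 60.8, 58.7 and 56.3 in DOX and 35.4, 52.7 and 46.0 in PBS, and PBS replicate 2 came within 3.67 points of the lowest DOX value. The median over the list was 0.81 points. Without PBS replicate 3 the share chosen was 14.7%.

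Genes of actin filaments, adhesion and Hippo signalling had 26 members among 252 shared regions (10.3%, interval 6.85% to 14.8%) and 11 lower regions, spread over 16 genes. The members included regions at the transcription factors Tead3 and Tead4 and their coactivator Wwtr1, at the target Ccn2, and at the integrins Itga5, Itga8, Itga11 and Itgav. Inside Tead3 a region (chr17:28348213-28348856) ranked 44.7, 45.2 and 54.1 in DOX and 30.6, 21.2 and 23.3 in PBS. Inside Actn4, an alpha-actinin, a region (chr7:28945367-28946599) ranked 47.1, 43.5 and 41.4 in DOX and 34.3, 26.0 and 15.4 in PBS. The groups were 14.2 points apart in Tead3 and 7.17 points in Actn4. The median over the list was 0.54 points, and 144 of 252 regions had a difference above 0. The share chosen without PBS replicate 3 was 12.4%.

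Genes of TGF-beta and BMP signalling had 29 members among 332 shared regions (8.73%, interval 5.93% to 12.3%) and 12 lower regions (3.61%). The members spanned ligands (Tgfb1, Bmp4, Bmp6 and Inhbb), receptors (Acvr1, Tgfbr2 and Tgfbr3) and the intracellular Smad3, Smad5, Smad6 and Smad7. Inside Ltbp1, which holds latent TGF-beta in the matrix, a region (chr17:75038998-75039417) ranked 36.2, 26.9 and 25.6 in DOX and 5.20, 4.40 and 7.08 in PBS. Inside Smad6, an inhibitor of BMP signalling, a region (chr9:63978740-63979107) ranked 26.0, 25.9 and 17.4 in DOX and 0.894, 4.40 and 11.2 in PBS. At an end of Acvr1, a BMP type I receptor, the difference was 21.5 points and dropped to 12.7 without PBS replicate 3, the library in which that region ranked 1.24. The list median was 1.05 points, and 198 of 332 regions had a difference above 0. With PBS replicate 3 left out, 14.3% were chosen.

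Genes of MSPC identity and niche factors were not among these. They had 17 members (5.00%) and 20 lower regions (5.88%) among 340 shared regions, with a median difference of 0.04 points. Beside the Kitl region above, a region 3318 bp from Csf1, the growth factor of macrophages (chr3:107763615-107763913), ranked 34.5, 35.4 and 39.0 in DOX and 19.3, 19.6 and 19.5 in PBS. The DOX values lay within 4.46 points of each other and the PBS values within 0.299. Osteoblast genes had 10 members and 18 lower regions among 196, and Wnt genes 10 members and 15 lower regions among 255 (3.92%). Wnt7b, described above, was not on the Wnt list. The MSPC and Wnt shares were among those that changed sides when the shallowest library was left out. Without PBS replicate 3 they were 10.4% and 12.3%, above the 9.15% of all shared regions, and that of osteoblast genes was 7.23%. They also changed sides with all 6 libraries when ranks were by fold enrichment times width. The shares were then 8.82% for MSPC genes, 7.84% for Wnt genes and 3.57% for osteoblast genes, against 6.31% of all shared regions. Among Wnt genes, a region inside Tcf7l2, a transcription factor of the pathway (chr19:55829162-55830045), ranked 54.5, 52.1 and 42.9 in DOX and 35.4, 27.5 and 23.3 in PBS. One at an end of Sfrp2, a secreted Wnt modulator (chr3:83765816-83767071), ranked 50.3, 41.7 and 51.0 in DOX and 34.3, 30.4 and 23.3 in PBS. The groups were 7.45 and 7.48 points apart at their nearest values in these regions.

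Genes that respond to DNA damage had as many lower regions as members. The p53 list had 7 members, from Btg2, Eda2r, Fas and Pmaip1, and 7 lower regions among 80 shared regions. At an end of Eda2r, a p53 target of the TNF receptor family (chrX:97376996-97377434), the ranks were 68.5, 67.6 and 67.5 in DOX and 61.3, 62.7 and 58.1 in PBS. That is a steady but small difference of 7.17 points. Genes of DNA damage response and repair had 0 members and 0 lower regions among 40 shared regions, a count that allows a share of up to 7.50% by the rule of 3 counts and up to 8.81% by the exact binomial interval, and both include the overall 6.23%. Of those 40 regions, 52.5% were at gene ends and their median rank was 78.5. The part of strength in the count was not tested. Senescence and secreted factor genes had 7 members and 8 lower regions among 105. AP-1 and immediate early genes had 9 members and 3 lower regions among 121, including a region at an end of Batf3 (chr1:191097764-191098793) that ranked 37.7, 33.9 and 42.9 in DOX and 19.3, 26.0 and 23.3 in PBS. Without PBS replicate 3 the shares chosen were 9.89% for p53 genes, 2.04% for DNA damage response and repair, 12.9% for senescence and 12.6% for AP-1 genes, against 9.15% of all shared regions.

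The remaining lists of stromal and general genes had shares of 3.92% to 7.95%, on either side of the overall 6.23%. Collagens and matrix genes had 25 members and 24 lower regions among 331, and matrix proteases 11 and 10 among 174. Metabolic and oxidative stress genes had 7 members and 2 lower regions among 99 (7.07%), but 12.1% of the list's regions were chosen without PBS replicate 3 and 16.2% with ranks by fold enrichment times width, against 9.15% and 6.31% of all shared regions. Near Vegfa, the main growth factor of blood vessels, a region of 3947 bp (chr17:46007006-46010952) ranked 22.8, 14.7 and 36.3 in DOX and 1.48, 9.88 and 3.59 in PBS. NF-kB genes had 6 members and 2 lower regions among 90, interferon genes 4 and 2 among 57, and Hox and limb patterning genes 10 and 8 among 148. Nuclear receptor and clock genes had 11 members and 17 lower regions among 263, pericyte and smooth muscle genes 7 and 4 among 88, and chondrocyte genes 2 and 5 among 51. Without PBS replicate 3 the shares chosen were 6.42% for pericyte and smooth muscle genes, 6.25% for interferon genes and 6.72% for NF-kB genes, which placed these lists below the 9.15% of all shared regions and not above it. The share was 12.8% for Hox and limb patterning genes, 9.46% for collagens and matrix, 9.91% for matrix proteases, 8.96% for chondrocyte genes and 7.57% for nuclear receptors and clock. These counts are too small to order the lists among themselves.

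Genes of other marrow cells also had members. Endothelial genes had 5 members and 6 lower regions among 63 shared regions, T and NK cell genes 4 and 5 among 46, B cell genes 2 and 5 among 24, myeloid genes 2 and 2 among 44, and erythroid and megakaryocytic genes 3 and 0 among 21. The last share, 14.3%, has an interval of 3.05% to 36.3%. Without PBS replicate 3 the shares chosen were 13.1% for endothelial, 12.7% for T and NK, 6.67% for B, 11.5% for myeloid and 24% for erythroid and megakaryocytic genes, so that the B cell list changed to below and the myeloid list to above the 9.15% of all shared regions. The number of genes of these lists that were open at a gene end overlapped or met between the groups in every list except the erythroid and megakaryocytic one. It was 11 to 13 in DOX and 8 to 13 in PBS of 24 endothelial genes, 6 to 8 in DOX and 5 to 6 in PBS of 19 B cell genes, and 7 to 8 in DOX and 6 to 8 in PBS of 20 T and NK cell genes. Of 24 myeloid genes it was 10 to 13 in DOX and 9 to 12 in PBS, and of 22 erythroid and megakaryocytic genes 10 in DOX and 8 to 9 in PBS. PBS replicate 3 had the lowest value of each list, tied with PBS replicate 2 for B cells. Open in none of the libraries were Cdh5, Pecam1 and 7 other endothelial genes, Pax5, Ms4a1 and 9 other B cell genes, Cd3e, Cd8a and 10 other T and NK cell genes, Ptprc, Mpo and 8 other myeloid genes, and Gata1, Hbb-bs and 10 other erythroid and megakaryocytic genes. Cd3d, Spi1, Kdr and Klf1 were open in all of them. The part of such cells in the members was not tested.

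Few members were promoters. The summit of 225 members (6.54%) fell in the promoter window of a RefSeq gene, against 14.5% of all shared regions. The 247 promoters of these members had a median GC content of 60.7% and 18 CpG dinucleotides, against 62.3% and 23 in 9453 promoters of shared regions and 53% and 7 in all 32619 promoters of the table. TEAD letters were found in 18.6% of member promoters (95% exact binomial interval 14% to 24%), 11.3% of those of shared regions and 14.6% of all. RUNX letters were found in 15%, 12.2% and 16.6%, and AP-1 letters in 4.86%, 4.39% and 7.85%. The GC box, the cAMP response element and ETS letters, which contain a CG, were less frequent in member promoters than in those of shared regions. The GC box was in 62.3% against 71.5%, the cAMP response element in 23.5% against 34.8%, and ETS in 21.5% against 31.0%. Over all promoters those shares were 35.9%, 20.9% and 15%. NF-Y letters, which contain no CG, were in 35.6%, 41.8% and 37.6%, and the E-box, which does contain a CG, in 10.1%, 10.7% and 7.2%. The promoters of Plin4 and Pdlim3 printed above hold an NF-Y match and TEAD matches of this kind. Base composition differs between these sets, and its part in the motif shares was not tested. The hairpins of the microRNAs Mir330, Mir6927 and Mir7212 overlapped members with differences of 6.22, 6.41 and 5.65 points.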

How the data were processed

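For each library the authors deposited their own peak list, called per library and not on pooled libraries. The build (mm10) and these tools are named, per the submitters' processing notes: MACS2 2.2.7.1, Bowtie2 2.4.5, DiffBind 3.16.0, Picard 2.10.9, FastQC 0.11.5, Trim Galore 0.6.6 and MultiQC 1.7. The sources used here give neither the caller's settings nor the Tn5 shift. The deposited values of a peak are its score, its fold enrichment (the ratio of summit pileup plus 1 to background plus 1), the −log10 of its p and q, and its summit position, all by the authors' caller.

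From these, a single background per library and whole-number pileups (100% within 0.05) were solved with the Poisson model. Ranks, levels, merged regions and nearest genes were computed with Python 3.11.15, numpy 2.4.6, pandas 2.3.3 and scipy 1.17.1. The code was tested on simulated data. Genes came from RefSeq (GRCm38.p6), and 641 of 645 list symbols matched. Peaks on chromosome Y were left out. The members and gene lists were chosen with earlier results of these data known.

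Regions were named as follows: the 15 largest differences, members of the 8 genes with most members, up to 4 genes per list with the largest differences, the 5 promoters with the largest differences under the conditions given with their sequences, 3 regions on each side of the threshold, and the widest and strongest 5 members. The largest cluster and the member with separate counting intervals were added after their values were seen. Alternatives used other thresholds, rankings, region definitions and gene end windows, and left out each library. Some named genes are not reported here.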

Additional observations from a re-analysis of the deposited data

How the results depend on the processing

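Ranking by fold enrichment times width gave 3484 members but found again only 1621 of the 3442 (47.1%). Of the 176 named regions, of which 3 lie just under the threshold, 174 kept their direction under it. The member at Nr4a1 (-1.43 points) and the region just under the threshold at Ltb4r2 (-0.72 points) did not. Only 108 of the 176 met the member rule under this ranking. Of the 3442, 76.6% were found again with a ratio of at least 1.2, 87.0% with lists limited to equal length, 76.5% among regions of at most 1 kb and 94.1% with merged summit windows. Members wider than 1 kb, 20.2% of the 3442, could not be found again among regions of at most 1 kb. Ranking by −log10 q gives the same order by construction. A least difference of 10 points left 1841 (53.5%). Leaving out 1 library and merging anew gave 4751 to 6262 members among 55570 to 68448 regions, since fewer libraries meet the rule more easily. Without PBS replicate 3, 81.9% of the 3442 were found again. The 2 shallowest DOX libraries against PBS replicates 1 and 2, an alternative chosen after seeing the data, gave 8271 and found 79.1% of the 3442 again. The 5 parts by mean rank over all libraries were also chosen after seeing the data.

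The share of members at a gene end was 8.26% with a least difference of 10 points, 20.5% with none, 13.6% for fold times width, 8.00% among regions of at most 1 kb (11.3% of shared regions), 8.41% in the least uneven depth (18.1%), 8.48% for a window of 500 bp (18.1%), 18.3% for 2500 bp (27.5%), and 8.98% to 12% when 1 library was left out. The share in left-out pairs was 58.4% to 71.5%. With promoters that overlapped a member anywhere, GC boxes were in 54.3% (65.9% of those of shared regions). Median pileups of members were 66 to 96 in DOX and 14 to 38 in PBS, so counting error is large for a single region. No paired analysis was possible because the results come from no test, and no label ties the replicate numbers of DOX to those of PBS.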
